A study of Mus musculus with 8 samples.

Results

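The 44 genes described here encode the machinery that copies the genome and divides the cell: cyclins and cyclin-dependent kinases, the replicative helicase and its loaders, enzymes that supply deoxynucleotides, centromere and checkpoint proteins, mitotic kinases, spindle motors and partners of the anaphase-promoting complex. The rule that chose them is a list of gene names, standard cell cycle genes, with no threshold on their values. The list was chosen with earlier results of these data known. Every one of the 44 had at least 1 probe whose RefSeq accession mapped to its symbol, out of 19897 named genes on the array, and 57 probes stood for them. Motor neurons made from male mouse embryonic stem cells that carry the Hb9-GFP reporter were profiled, with 2 arrays for each of the 4 groups: Litchi knockout at day 7, its control at day 7, Litchi knockout at day 9 and its control at day 9. Hb9-GFP is a green fluorescent protein driven by the promoter of the motor neuron gene Hb9. All groups were treated alike otherwise: retinoic acid (RA) and Sonic hedgehog (Shh) from day 2, dissociation of the embryoid bodies into single cells on day 5, and the growth factor GDNF from then on. The labels do not say how many knockout clones were used, whether GFP-positive cells were sorted, or whether the replicates came from separate cultures, so p-values measure the spread between these arrays, which may be technical.

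In a dividing cell, replication origins are licensed in G1 when Cdc6 and Cdt1 load the Mcm2 to Mcm7 helicase, and Cdc45 and the GINS complex then turn that helicase on in S phase. Cyclin B with Cdk1 drives entry into mitosis, Aurora and Polo-like kinases build the spindle, checkpoint proteins such as Bub1 hold anaphase until chromosomes are attached, and Cdc20 then directs the anaphase-promoting complex to degrade the cyclins. Neurons leave the cell cycle when they form and largely switch these genes off, so that in neural cultures their RNA is usually found in progenitors and other dividing cells.

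Genes of this kind are known to be controlled from short promoter elements: E2F sites in many G1 and S phase genes, and a CHR element with CCAAT boxes in many G2 and mitotic genes. RefSeq promoter windows (assembly GRCm38.p6, 250 bases before to 50 bases after the start site) were matched for 35 of the 44 genes and searched on both strands. The letters searched were TTTGAA for the CHR element, CCAAT for the CCAAT box, and TTCCCGC as well as TTGGCGC for E2F sites, and no match of one motif overlapped a match of another in the windows shown. Variants of these letters were not searched, such as TTCGAA, which can be read in the Bub1 and Top2a windows below. The windows of 4 genes that rose in knockout cells are shown because they hold matches to the searched letters in different combinations. The letters of each match are in capitals.
Cdc6, chr11:98907901-98908200, plus strand: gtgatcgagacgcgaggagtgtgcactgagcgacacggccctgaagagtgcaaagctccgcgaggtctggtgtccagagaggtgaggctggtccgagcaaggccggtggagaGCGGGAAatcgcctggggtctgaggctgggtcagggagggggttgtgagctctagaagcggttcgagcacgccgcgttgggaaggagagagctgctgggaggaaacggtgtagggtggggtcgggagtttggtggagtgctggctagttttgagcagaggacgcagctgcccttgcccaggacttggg
Top2a, chr11:99024140-99024439, minus strand: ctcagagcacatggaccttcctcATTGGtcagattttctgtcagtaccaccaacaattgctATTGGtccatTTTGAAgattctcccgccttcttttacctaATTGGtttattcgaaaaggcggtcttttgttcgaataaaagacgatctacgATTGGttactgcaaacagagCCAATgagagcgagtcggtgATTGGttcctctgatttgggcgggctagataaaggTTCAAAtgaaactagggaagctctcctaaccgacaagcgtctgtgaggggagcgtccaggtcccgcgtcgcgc
Bub1, chr2:127831810-127832109, minus strand: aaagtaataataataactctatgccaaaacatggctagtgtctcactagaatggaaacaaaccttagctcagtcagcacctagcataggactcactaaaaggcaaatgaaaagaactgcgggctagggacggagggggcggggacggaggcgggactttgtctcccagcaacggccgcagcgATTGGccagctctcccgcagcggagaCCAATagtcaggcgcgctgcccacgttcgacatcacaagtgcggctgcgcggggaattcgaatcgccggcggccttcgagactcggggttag
Aurka, chr2:172370521-172370820, minus strand: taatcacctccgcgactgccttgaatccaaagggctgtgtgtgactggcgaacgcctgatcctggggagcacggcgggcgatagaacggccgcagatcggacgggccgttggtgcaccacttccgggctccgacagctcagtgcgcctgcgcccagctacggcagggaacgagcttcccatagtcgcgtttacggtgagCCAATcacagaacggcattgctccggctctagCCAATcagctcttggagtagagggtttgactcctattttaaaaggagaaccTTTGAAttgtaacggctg
The Cdc6 window held 1 E2F match, 138 bases before the start site, and no CHR or CCAAT match. The Top2a window held 6 CCAAT and 2 CHR matches, the nearer CHR match lying 23 bases before the start site. Bub1 had 2 CCAAT matches, and Aurka had 2 CCAAT matches and 1 CHR match. Birc5, which also rose, had a window with none of these letters. Among the members with a window, TTTGAA occurred in 48.6%, CCAAT in 80.0% and an E2F match in 31.4%, against 20.2%, 41.1% and 7.79% of 27025 genes with a promoter window. The 12 replication and deoxynucleotide genes with a window split from the 17 mitotic ones, Top2a and Mki67 counted among the mitotic genes: an E2F match was found in 58.3% of the replication and deoxynucleotide set and in 5.88% of the mitotic set, whereas TTTGAA was found in 16.7% of replication and deoxynucleotide genes and in 76.5% of mitotic genes. The split was less sharp in the further pathway genes described below. There an E2F match was found in 57.7% of 26 origin, polymerase and fork genes and in 26.1% of 46 mitotic genes. TTTGAA was found in 15.4% and 63.0% of them. A match is a run of letters and not a measured binding site.

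The arrays differed in brightness, whose 75th percentile of the processed signal ran from 649 to 1691 intensity units, and the share of spots well above background was 55.9% at the lowest and 67.9% at the highest. Levels are therefore given as log2 signal relative to each array's own 75th percentile, and levels of different genes, read by different probes, are not set against each other. A gene was tested if a probe of it was well above background on both replicates of some group. This held for 42 of the 44 genes, and each of the 42 was above background on all 8 arrays. Ccne2, a partner of Cdk2, was not well above background on any array, and Aurkb, the kinase of the chromosomal passenger complex, was above it on 3 of 8, so neither was tested. For the cell type in the labels, 8 of 8 motor neuron markers and 12 of 12 neuron markers were well above background on every array. So were 10 of 10 pluripotency markers, 10 of 10 mesenchymal markers and 11 of 12 neural progenitor markers. Detection alone therefore cannot tell these cell types apart. Litchi was not among the gene names used here, and the level of the deleted gene was not analysed.

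Knockout cells were compared with control cells on each day and over both days together, to ask how the cell cycle genes differed between the genotypes. As the number of knockout clones is not given, a difference between clones cannot be told apart from the loss of Litchi. Over both days, 41 of the 42 tested genes had a positive change in knockout cells, with a median log2 change of 0.29, against a median of -0.04 over all 24632 genes tested, of which 45.5% had a positive change. The middle of the list ran from 0.17 to 0.40 (quartiles). By limma, with Benjamini-Hochberg adjustment over all genes tested, 7 of the 42 passed (16.7%), all of them higher: Cdc6, Top2a, Birc5, Kif20a, Gins2, Bub1 and Aurka. Over all genes, 14.8% passed in either direction, 5.48% as higher and 9.35% as lower. At an unadjusted p under 0.05, 21 members were higher (13.4% of all genes) and Ccnd1 was lower (20.3%). In bulk RNA, a larger share of dividing cells and more RNA per dividing cell cannot be told apart. The count was sensitive to single arrays: leaving out any 1 of the 8 passed fewer members, and fewer of all genes as well. The median change of the members stayed between 0.23 and 0.34 in these fits, and 41 of 42 changes stayed positive each time. Of all calls for the mean effect, 37.0% were higher with the 75th percentile as the scale, 48.1% after quantile normalization and 71.5% with the array median as the scale. That last scale moved the median of all genes to 0.13 and passed 26 members, all higher, and 13.4% of all genes as higher.

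**Figure D1:**
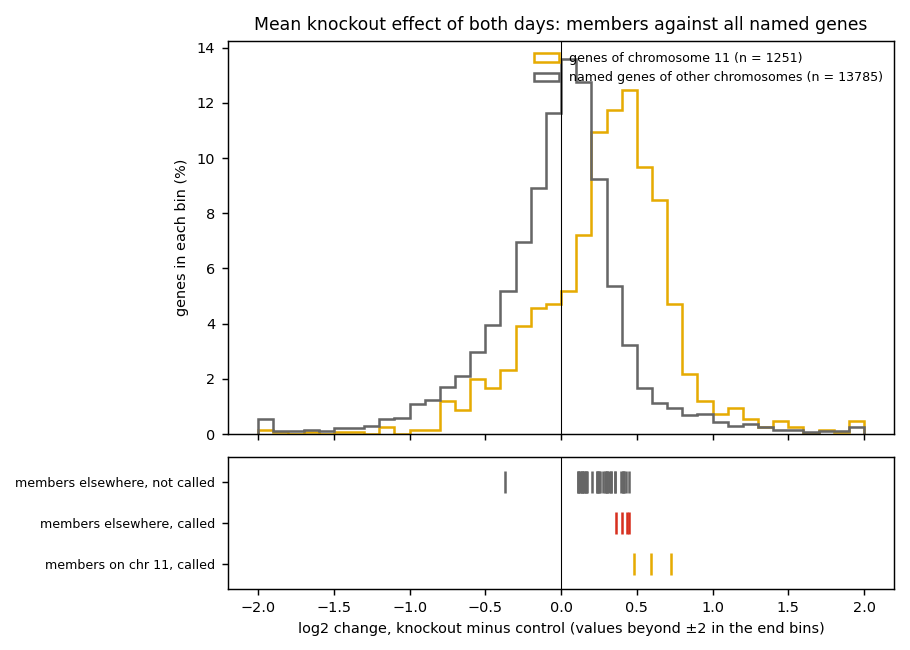
Mean knockout effect of both days on the log2 scale (horizontal axis). The upper panel shows the percentage of named genes in each bin of effect for chromosome 11 (1251 genes) and for the other chromosomes (13785 genes), and the lower panel marks each tested cell cycle gene with a bar. All bars but that of Ccnd1 lie to the right of 0, and the 3 members on chromosome 11 lie furthest to the right, within the shifted distribution of that chromosome.

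Where the genes lie touches this result. Cdc6, Top2a and Birc5 are on chromosome 11, and the 1251 genes tested on that chromosome had a median mean effect of 0.34 in knockout cells, with 30.1% passing as higher, against a median of 0.01 and 5.24% for named genes on other chromosomes. Relative to the chromosome 11 median, Cdc6 remained at 0.39, Top2a at 0.26 and Birc5 at 0.14. The 39 tested members on other chromosomes had a median effect of 0.28, and 4 of them passed (10.3%), namely Kif20a, Gins2, Bub1 and Aurka. The part of the chromosome in the results for Cdc6, Top2a and Birc5 was not tested.

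**Figure D2:**
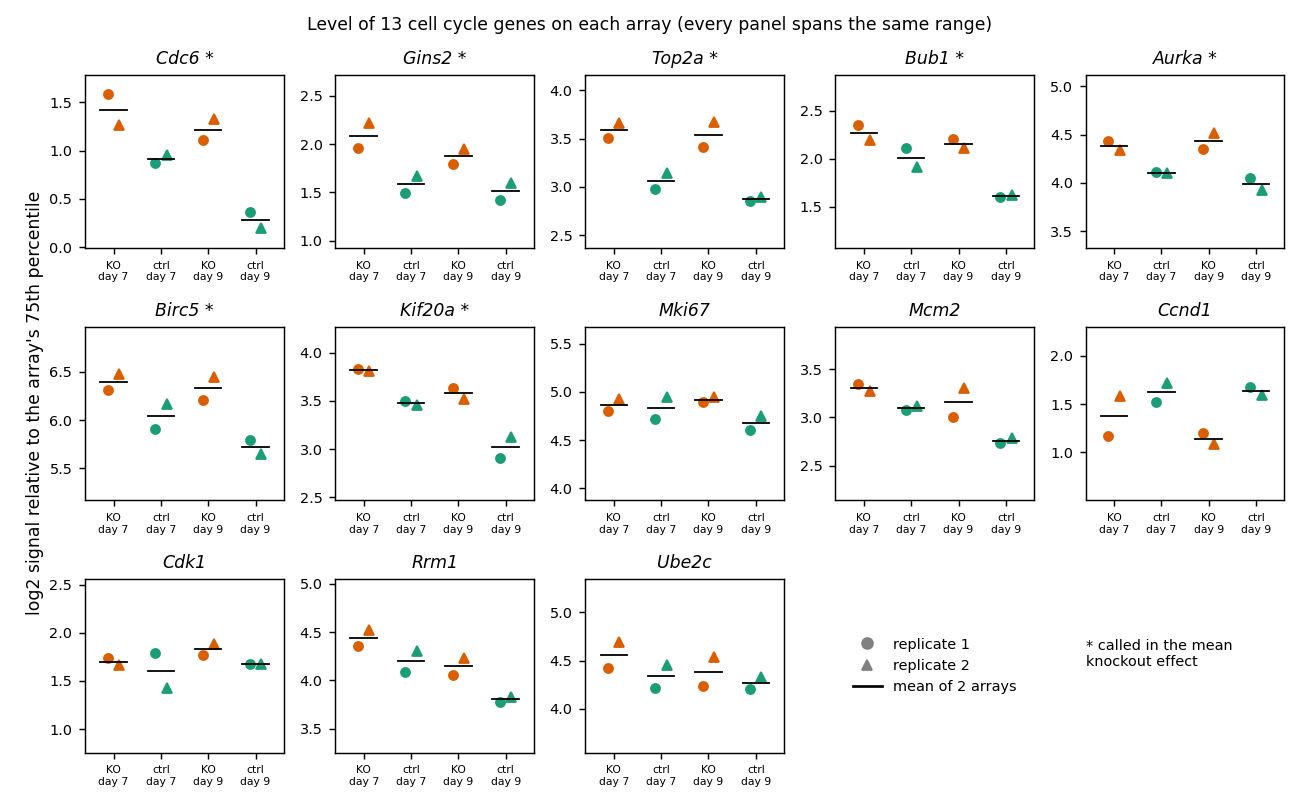
Level of 13 cell cycle genes on each of the 8 arrays, as log2 signal relative to the array's 75th percentile (vertical axis, every panel spanning the same range), for knockout (orange) and control (green) cells on each day. Circles are replicate 1, triangles replicate 2 and black lines the mean of both arrays. In the 7 genes marked with an asterisk both knockout points lie above both control points on each day, whereas in Mki67 the points overlap on day 7 and in Ccnd1 the knockout points lie below on day 9.

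Among the 11 genes of replication licensing and the fork, all 11 had positive changes on both days, with a median of 0.34 on day 7 and 0.39 on day 9. In the mean of both days 2 of the 11 rose, against 5.48% of all genes as higher, and 1 of the 2, Cdc6, lies on chromosome 11. Cdc6 (NM_011799), which loads the helicase at origins, had levels of 1.58 and 1.27 in knockout cells, against 0.87 and 0.95 in control cells, on day 7. On day 9 they were 1.11 and 1.32 in knockout cells, against 0.36 and 0.19 in control cells. All knockout arrays lay above both control arrays of their day. Cdc6 rose by 0.73 ± 0.12 (log2 change ± SE, 1.66-fold, limma adjusted p = 0.0169) over both days. On day 9 alone it rose by 0.94 ± 0.16 (1.92-fold, limma adjusted p = 0.0335). A second Cdc6 probe gave 0.54 over both days, in the same direction. The Cdc6 call over both days was lost without a filter and without replicate 2 of knockout day 9. The change over both days stayed between 0.63 and 0.90 over all alternatives. Gins2 (NM_178856), a subunit of the GINS complex that activates the helicase, had levels of 1.96 and 2.22 in knockout cells, against 1.50 and 1.67 in control cells, on day 7, while on day 9 the values were 1.80 and 1.95 in knockout cells, against 1.43 and 1.60 in control cells. Its groups did not overlap on either day, and it rose by 0.43 ± 0.11 over both days (limma adjusted p = 0.0479). The call was marginal: it was lost after quantile normalization, with the deposited log2 table, with normexp, without a filter and in each of the 8 fits that left out 1 array, although the change stayed between 0.37 and 0.60 over all alternatives (adjusted p from 0.0191 to 0.145).

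The helicase subunits gave a narrow band of values. Mcm2 (NM_008564), one of the 6 subunits listed, had levels of 3.35 and 3.27 in knockout cells, against 3.08 and 3.12 in control cells, on day 7. The levels of day 9 were 3.00 and 3.31 in knockout cells, against 2.73 and 2.79 in control cells. Both knockout arrays were above both control arrays on each day, but the difference of 0.30 ± 0.10 over both days did not pass (limma adjusted p = 0.0962). Mcm3 to Mcm7 had mean effects between 0.32 (Mcm6) and 0.35 (Mcm5 and Mcm7), and none passed. Cdc45, which joins the helicase with GINS, came closest at 0.41 ± 0.11 (limma adjusted p = 0.0509). Cdt1, the partner of Cdc6 in loading, stood at 0.45 ± 0.13 (0.0665, limma adjusted p) and Pcna, the sliding clamp of the polymerases, at 0.24 ± 0.09 (0.110).

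The 3 genes of deoxynucleotide supply had smaller positive changes, and none passed. Rrm1 (NM_009103), the large subunit of ribonucleotide reductase, had levels of 4.35 and 4.53 in knockout cells, against 4.09 and 4.30 in control cells, on day 7. Its day 9 levels were 4.06 and 4.23 in knockout cells, against 3.78 and 3.83 in control cells. The groups did not overlap on either day, with a mean effect of 0.29 ± 0.10 (limma adjusted p = 0.105). Rrm2, the small subunit, and Tyms, thymidylate synthase, had mean effects of 0.23 ± 0.12 and 0.17 ± 0.10.

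Top2a and Mki67, both used as markers of dividing cells, gave different values. Top2a (NM_011623), the topoisomerase that untangles sister chromosomes, had levels of 3.51 and 3.67 in knockout cells, against 2.97 and 3.14 in control cells, on day 7. On day 9 they were 3.41 and 3.67 in knockout cells, against 2.86 and 2.90 in control cells. Every knockout array exceeded every control array of either day, and Top2a rose by 0.60 ± 0.11 over both days (1.51-fold, limma adjusted p = 0.0212). On day 9 alone its change of 0.67 ± 0.15 just missed the threshold (limma adjusted p = 0.0573). The Top2a call over both days was lost without a filter and in most fits that left out 1 array. The change over both days stayed between 0.53 and 0.76. Mki67 (NM_001081117), whose protein Ki-67 coats mitotic chromosomes, had levels of 4.80 and 4.92 in knockout cells, against 4.72 and 4.95 in control cells, on day 7, while on day 9 the values were 4.89 and 4.95 in knockout cells, against 4.60 and 4.74 in control cells. Its arrays overlapped between genotypes on day 7, whereas on day 9 both knockout arrays were above both controls. The mean effect of 0.14 ± 0.10 did not pass (limma adjusted p = 0.381, 95% interval -0.10 to 0.38), so a rise of the median size of the list is within its interval. The difference between Top2a and Mki67 was not tested.

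In the cyclin group 8 of 9 tested genes had positive changes over both days, and none passed. The largest were Ccnb2, a mitotic cyclin, at 0.43 ± 0.16 (limma adjusted p = 0.111), and Ccne1, the cyclin that starts S phase with Cdk2, at 0.42 ± 0.12 (0.0610). Foxm1, a transcription factor of mitotic genes, had 0.30 ± 0.11 from the probe used and 0.53 from its second probe, while E2f1, a transcription factor of replication genes, had 0.15 ± 0.12. Cdk1 (NM_007659), the mitotic kinase, had levels of 1.74 and 1.66 in knockout cells, against 1.79 and 1.43 in control cells, on day 7. The levels of day 9 were 1.77 and 1.89 in knockout cells, against 1.67 and 1.68 in control cells. Its arrays overlapped on day 7, and the mean effect was 0.12 ± 0.11 (limma adjusted p = 0.479). The 3 Cdk1 probes disagreed: the other two gave mean effects of 0.36 and -0.19, the last being above background on 5 of 8 arrays. Cdk1 was the only 1 of the 10 members with several usable probes whose probes differed in sign for a knockout effect.

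Ccnd1 was the only tested member with a negative mean effect. Ccnd1 (NM_007631), the G1 cyclin that links growth signals to the cycle, had levels of 1.17 and 1.59 in knockout cells, against 1.52 and 1.72 in control cells, on day 7. Its day 9 levels were 1.20 and 1.08 in knockout cells, against 1.68 and 1.59 in control cells. On day 9 both knockout arrays lay below both control arrays, and on day 7 the arrays overlapped. The change was -0.50 ± 0.18 on day 9 and -0.37 ± 0.13 over both days, and neither passed (limma adjusted p = 0.147 and 0.0938).

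The centromere, kinase and passenger, and spindle groups held 4 of the 7 calls over both days, for which 5.48% of all genes passed as higher. Bub1 (NM_009772), a checkpoint kinase of the kinetochore, had levels of 2.34 and 2.20 in knockout cells, against 2.11 and 1.92 in control cells, on day 7. On day 9 they were 2.20 and 2.11 in knockout cells, against 1.60 and 1.63 in control cells. The knockout arrays were above the control arrays on both days, and Bub1 rose by 0.40 ± 0.10 over both days (limma adjusted p = 0.0414). The Bub1 call was lost with normexp, without a filter and in each fit that left out 1 array. Its change stayed between 0.35 and 0.57 over all alternatives. The other 4 centromere and checkpoint genes did not pass: Bub1b, which acts with Bub1 in the checkpoint, had a mean effect of 0.39 ± 0.15, and Cenpa, the centromeric histone, Cenpe, a kinetochore motor, and Cenpf, a kinetochore protein, had between 0.11 and 0.14. Among the kinases and passengers, Aurka (NM_011497), the kinase of the spindle poles, had levels of 4.43 and 4.34 in knockout cells, against 4.11 and 4.10 in control cells, on day 7, while on day 9 the values were 4.35 and 4.52 in knockout cells, against 4.05 and 3.93 in control cells. Its groups did not overlap on either day, and it rose by 0.36 ± 0.09 (limma adjusted p = 0.0495). Its call was lost under the same alternatives as that of Gins2, while the change stayed between 0.32 and 0.53 (adjusted p from 0.0227 to 0.149). Birc5 (NM_001012273), which encodes survivin of the chromosomal passenger complex, had levels of 6.31 and 6.48 in knockout cells, against 5.91 and 6.16 in control cells, on day 7. The levels of day 9 were 6.21 and 6.45 in knockout cells, against 5.79 and 5.65 in control cells. It rose by 0.48 ± 0.12 (limma adjusted p = 0.0402), and its other probes gave 0.68 and 0.65. The Birc5 call was lost without a filter and in each fit that left out 1 array, while the change stayed between 0.42 and 0.65. Plk1, Polo-like kinase 1, and Cdca8, the passenger protein borealin, had mean effects of 0.25 ± 0.11 and 0.12 ± 0.10 and did not pass. A second Cdca8 probe, above background on all 8 arrays, gave 0.27 over both days.

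All 6 spindle motor and midzone genes had positive changes on both days. Kif20a (NM_009004), a kinesin of the midzone that acts in cytokinesis, had levels of 3.83 and 3.81 in knockout cells, against 3.50 and 3.46 in control cells, on day 7. Its day 9 levels were 3.63 and 3.52 in knockout cells, against 2.91 and 3.13 in control cells. The knockout arrays lay above the controls on both days, and Kif20a rose by 0.45 ± 0.10 (limma adjusted p = 0.0309). The Kif20a call was lost without a filter and in most fits that left out 1 array, while the change stayed between 0.39 and 0.62. The other 5 did not pass, with mean effects between 0.11 for Prc1, which bundles midzone microtubules, and 0.29 for Tpx2, an activator of Aurora A. Of the partners of the anaphase-promoting complex, Ube2c (NM_026785), its ubiquitin-conjugating enzyme, had levels of 4.42 and 4.69 in knockout cells, against 4.22 and 4.46 in control cells, on day 7. On day 9 they were 4.23 and 4.53 in knockout cells, against 4.20 and 4.33 in control cells. Its groups overlapped on both days, and the mean effect was 0.17 ± 0.13 (limma adjusted p = 0.395). Cdc20, the activator of that complex, had 0.16 ± 0.09 (0.232, limma adjusted p), with both knockout arrays above both controls on each day.

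**Figure D3:**
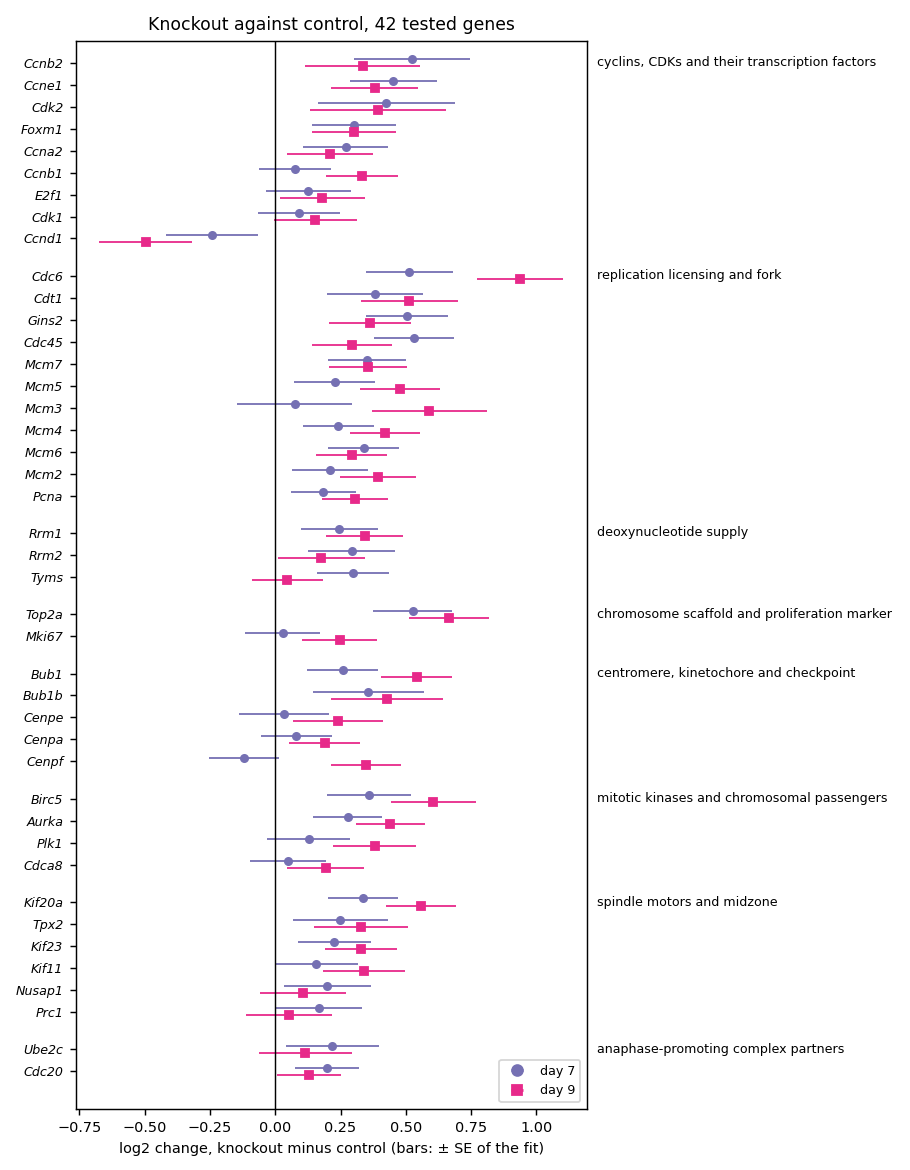
Log2 change between knockout and control cells (horizontal axis, bars are ± the SE of the fit) on day 7 (circles) and day 9 (squares) for the 42 tested genes, grouped by role. On day 9 all genes but Ccnd1 lie to the right of 0, with Cdc6 furthest at 0.94, and on day 7 Ccnd1 and Cenpf lie to the left.

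Day by day, the single comparisons of 2 arrays against 2 passed few genes. On day 7, 40 of 42 members had positive changes, with a median of 0.24 (median of all genes -0.05, 44.2% positive). By limma 0 of 42 passed on day 7, against 0.215% of all genes, and 7 were higher and 0 lower at an unadjusted p under 0.05 (7.07% and 11.9% of all genes). On day 9, 41 of 42 were positive with a median of 0.33 (median of all genes -0.02, 47.9% positive), and Cdc6 alone passed, against 5.47% of all genes in either direction, 1.51% as higher and 3.96% as lower. Cdc6 lies on chromosome 11, where 9.19% of genes passed as higher on day 9 with a median change of 0.38, and 0 of the 39 tested members on other chromosomes passed, against 1.36% of named genes there. With the array median as the scale 5 members passed on day 9, namely Cdc6, Top2a, Bub1, Birc5 and Kif20a. Under that scale 4.62% of all genes passed as higher, and the median of all genes was 0.19. At an unadjusted p under 0.05, 14 members were higher on day 9 (10.4% of all genes) and Ccnd1 was lower (15.3%). Both knockout arrays lay above both control arrays for 27 of 42 members on day 7 (20.5% of all genes), for 32 on day 9 (27.1%) and for 23 on both days (13.0%). Both lay below for 0 members on day 7 (27.8% of all genes), for Ccnd1 on day 9 (32.5%) and for 0 on both days (16.9%). The day 9 call of Cdc6 was lost without replicate 1 or 2 of knockout day 9, of control day 9 or of control day 7. Fewer of all genes passed in those fits too. The adjusted p of Cdc6 over all alternatives ran from 0.0221 to 0.179.

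**Figure D4:**
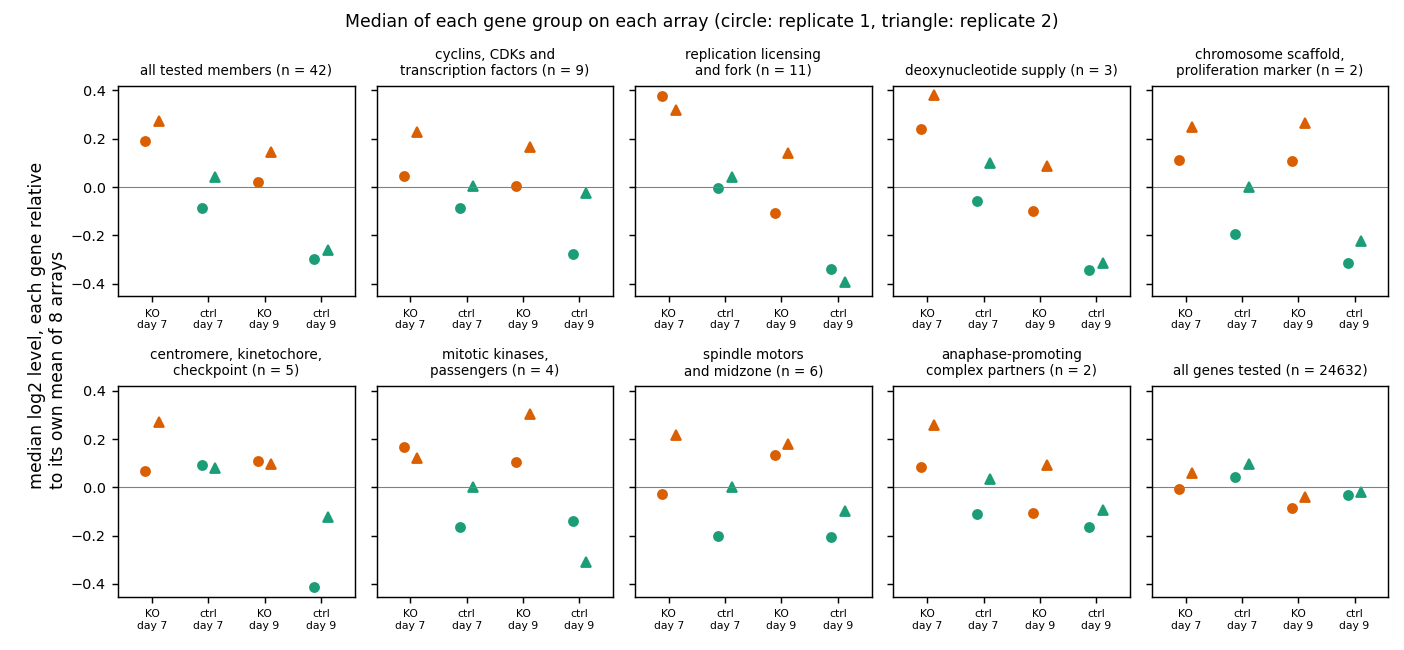
Median log2 level of each gene group on each array (vertical axis), every gene taken relative to its own mean of 8 arrays, for knockout (orange) and control (green) cells. Circles are replicate 1 and triangles replicate 2. Over all 42 tested genes the knockout points lie above the control points of the same day, and the replication group is lower on day 9 than on day 7 in both genotypes, while the median of all genes stays within 0.10 of 0.

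The same pattern can be read from each array. Taken relative to each gene's own mean, the median of the 42 members was 0.19 and 0.27 on the knockout arrays of day 7, against -0.09 and 0.04 on the control arrays. On day 9 it was 0.02 and 0.14 on the knockout arrays, against -0.30 and -0.26 on the control arrays. The knockout arrays thus exceeded the control arrays of their day, and the day 9 knockout arrays fell in the range of the day 7 arrays of both genotypes. Replicate 2, whose arrays were the dimmer ones, was the higher of the pair for 24 to 35 of the 42 members, depending on the group, and for 35 of 42 in knockout day 9. The part of brightness in the results was not tested.

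Day 9 was compared with day 7 within each genotype, to follow the genes as the cultures aged. No member passed in either genotype by limma (0 of 42 in each, against 8.31% of all genes in knockout cells, 4.15% higher and 4.17% lower, and 7.37% in control cells, 4.11% higher and 3.26% lower). The median change was -0.16 in knockout cells, against -0.12 for all genes, and -0.20 in control cells, against -0.12 for all genes. Positive changes were found for 11 of 42 members in knockout cells (38.2% of all genes) and for 8 in control cells (37.3%). Among the replication genes, all 11 had negative changes in both genotypes by the probes used. The medians were -0.31 in knockout cells and -0.44 in control cells. The second Cdc6 probe, above background on all 8 arrays, gave 0.21 in knockout cells and -0.44 in control cells. In knockout cells the probes of 3 of the 10 members with several usable probes differed in sign (Ccnb1, Cdc6 and Mki67). In control cells those of 2 did (Cdk1 and Foxm1), so counts of positive changes depend on the probe. For Ccnb1, counted at 0.03 in knockout cells, the other probes gave -0.50 and -0.49. Rrm1 and Rrm2 were negative in both genotypes, Rrm2 at -0.61 ± 0.17 in knockout cells and -0.49 ± 0.17 in control cells. The spindle motor and midzone genes had medians of 0.02 in knockout cells and -0.04 in control cells. At an unadjusted p under 0.05, 8 members were lower and Cenpf was higher in knockout cells (15.0% and 11.0% of all genes), and 13 were lower and Nusap1, a spindle microtubule protein, was higher in control cells (15.6% and 10.5%). Both day 9 arrays lay below both day 7 arrays for 17 of 42 members in knockout cells and for 24 of 42 in control cells, against 35.9% of all genes in each genotype. Both lay above for 4 members in knockout cells (22.1%) and for 2 in control cells (18.9%). With the array median as the scale, the knockout median was -0.01 and 19 rather than 11 members were positive. After quantile normalization the control median was -0.10, with 13 rather than 8 members positive, and it was -0.10 with the deposited table. The medians also moved with single arrays. In control cells the median was -0.31 without replicate 1 of control day 7 and -0.12 without replicate 2, and in knockout cells it was -0.09 without replicate 2 of knockout day 7 and -0.08 without replicate 1 of knockout day 9.

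**Figure D5:**
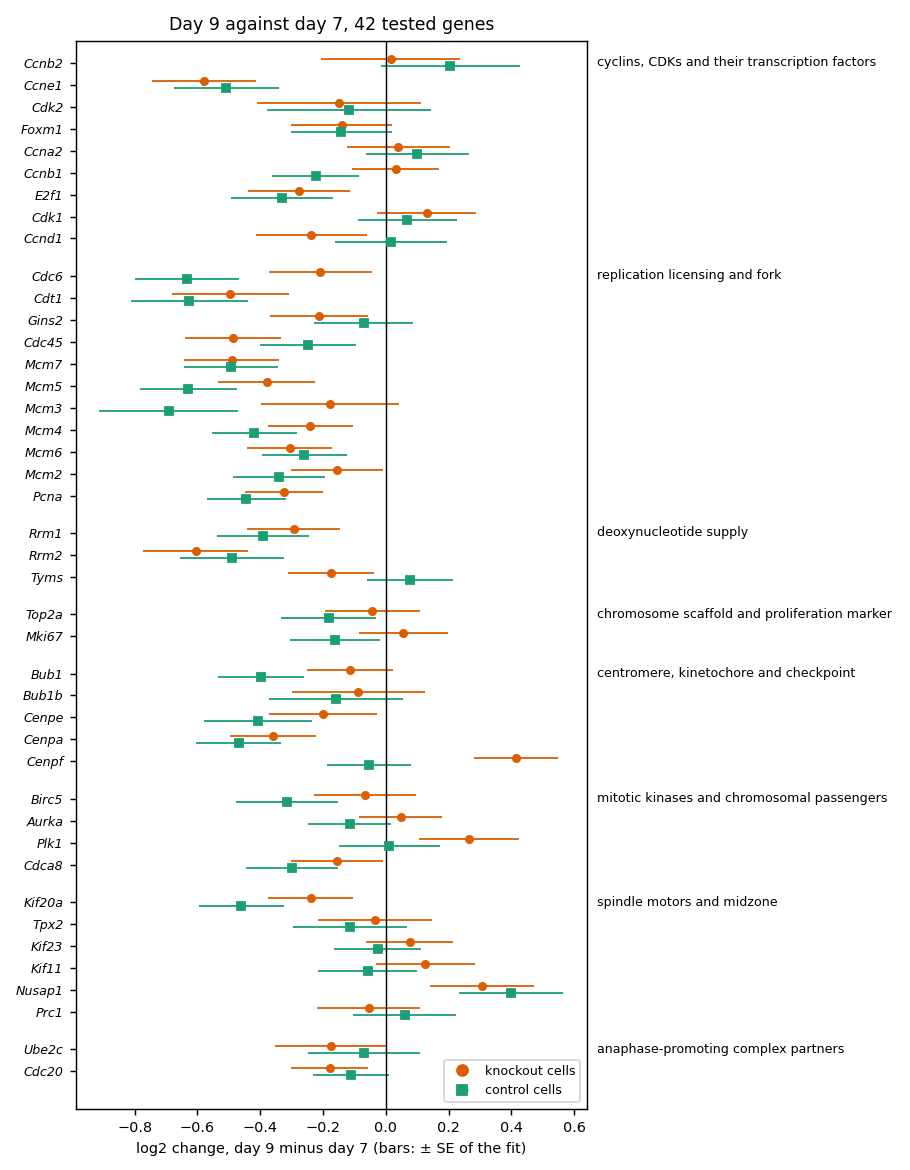
Log2 change between day 9 and day 7 (horizontal axis, bars are ± the SE of the fit) in knockout cells (circles) and control cells (squares) for the 42 tested genes, grouped by role. The 11 replication genes all lie to the left of 0 in both genotypes, while the spindle and midzone genes lie on both sides.

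The knockout effect was then compared between the days with an interaction term. No member passed by limma (0 of 42, against 0.00406% of all genes), and only Cenpf was higher at an unadjusted p under 0.05 (2.68% of all genes), with 0 lower (3.33%). The median difference was 0.10, day 9 minus day 7, against 0.00 over all genes, and 28 of 42 were positive (50.5% of all genes). It ran from 0.003 without replicate 2 of knockout day 9 to 0.17 without replicate 1 of that group, was 0.06 without replicate 1 of knockout day 7, 0.06 without replicate 2 of control day 7, 0.15 without replicate 1 and 0.07 without replicate 1 of control day 9, and was 0.03 after quantile normalization. Cenpf had levels of -2.72 and -2.67 in knockout cells, against -2.68 and -2.46 in control cells, on day 7, while on day 9 the values were -2.32 and -2.24 in knockout cells, against -2.62 and -2.63 in control cells. Its knockout effect was 0.35 ± 0.13 on day 9 and -0.12 ± 0.13 on day 7, and the difference of 0.47 ± 0.19 did not pass (limma adjusted p = 0.826). The largest difference was that of Mcm3, at 0.51 ± 0.31 (limma adjusted p = 0.872).

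Genes of the same pathways outside the list were read from the same fit, and these lists too were chosen with earlier results of these data known. Of 33 further origin, polymerase and fork genes, all 33 had positive mean effects in knockout cells, with a median of 0.37, and 8 rose and 0 fell. Over all genes 45.5% were positive, 5.48% passed as higher and 9.35% as lower. The largest were Tk1, thymidine kinase, at 0.69 ± 0.11 (limma adjusted p = 0.0157), Orc1, an origin recognition subunit, at 0.53 ± 0.12 (0.0314) and Chaf1b, a subunit of chromatin assembly factor 1, at 0.51 ± 0.11 (0.0341). Tk1 lies on chromosome 11. Of 52 further mitotic genes on the array, 51 had positive mean effects with a median of 0.32, and 12 rose and 0 fell (the same shares of all genes apply), led by Dlgap5, a spindle protein, at 0.55 ± 0.10 (0.0220, limma adjusted p), Kif18b, a kinesin gene on chromosome 11, at 0.49 ± 0.10 (0.0282) and Ndc80, a kinetochore subunit, at 0.47 ± 0.12 (0.0432). On day 9 alone Cdkn3, a phosphatase of cyclin-dependent kinases, and Kif18a, a kinesin, rose by 0.65 ± 0.13 and 0.61 ± 0.12 (limma adjusted p = 0.0439 and 0.0400), the only calls of that list on day 9, when 1.51% of all genes passed as higher. In control cells, Dbf4, Orc1 and Rfc4 fell between day 7 and day 9, by limma, and so did the mitotic kinase gene Melk, 3 of 33 and 1 of 52 genes, against 3.26% of all genes lower. In knockout cells, Uhrf1 and Orc6 fell and Cdkn3 rose, against 4.17% of all genes lower and 4.15% higher.

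The inhibitors of cyclin-dependent kinases did not move together. Of 7, 1 rose and 1 fell in the mean of both days (5.48% and 9.35% of all genes). Cdkn1c, which encodes p57 and restrains G1 kinases, had levels of 2.92 and 2.42 in knockout cells, against 4.83 and 4.84 in control cells, on day 7. The levels of day 9 were 3.32 and 2.97 in knockout cells, against 4.76 and 4.31 in control cells. All knockout arrays lay well below all control arrays, and Cdkn1c fell, with a change of -1.78 ± 0.17 (limma adjusted p = 0.00617), and it passed on day 7 and day 9 taken alone. Cdkn2a, the locus of p16 and p19ARF, had levels of 2.31 and 2.02 in knockout cells, against 1.57 and 1.28 in control cells, on day 7. Its day 9 levels were 2.58 and 2.93 in knockout cells, against 2.13 and 1.82 in control cells. It rose by 0.76 ± 0.15 (limma adjusted p = 0.0243), with both knockout arrays above both controls on each day. Cdkn2c and Cdkn1b, against 4.15% of all genes, rose between day 7 and day 9 in knockout cells, by 0.93 ± 0.17 and 0.58 ± 0.13 (limma adjusted p = 0.0253 and 0.0480). Of 17 G1 cyclins, kinases, E2F factors and pocket proteins outside the list, 15 had positive mean effects with a median of 0.22, and E2f2, an activating E2F factor, alone rose (0.45 ± 0.10, limma adjusted p = 0.0333), which as 1 of 17 is close to the 5.48% of all genes. E2f2 and E2f3 fell between day 7 and day 9 in control cells (3.26% of all genes lower).

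Markers of the cell types that the cultures could hold differed between the genotypes beside the cell cycle genes. The summed linear level of 12 neuron markers was between 320.8 and 340.4 in knockout cells on day 7, against 432.3 to 500.8 in control cells, and between 147.9 and 153.9 in knockout cells on day 9, against 274.7 to 337.8 in control cells, in units of each array's 75th percentile. Over both days 10 of the 12 fell and none rose, against 9.35% of all genes lower and 5.48% higher, which is the background of every marker count over both days. The 8 motor neuron markers summed to 44.1 to 50.2 in knockout cells on day 7, against 55.7 to 59.3 in control cells, and to 13.6 to 15.8 in knockout cells on day 9, against 23.0 to 29.6 in control cells. Of these, 4 fell and Lhx3 rose. The 12 neural progenitor markers had overlapping sums, 372.6 to 439.8 in knockout cells on day 7, against 408.4 to 538.2 in control cells, and 425.7 to 515.9 in knockout cells on day 9, against 429.4 to 490.6 in control cells. Such a sum follows its brightest genes. Within that list Olig2, Pax6 and Hes5 rose over both days, by 1.93, 1.51 and 1.03, and Sox1 fell, with a change of -0.53. Pax6 was above background on only 1 of the 2 control arrays of day 9, with levels of -4.40 and -5.02 there. Its rise is thus measured partly against a level near background. The median change of the 12 was -0.13 on day 7 and 0.23 on day 9. On day 9 the same 3 genes rose and none fell, against 1.51% of all genes higher and 3.96% lower. The knockout effect was higher on day 9 than on day 7 for 12 of 12 (50.5% of all genes), and no difference passed. The 10 mesenchymal markers, all above background on every array, summed to 77.8 to 103.4 in knockout cells on day 7, against 49.6 to 71.1 in control cells, and to 156.9 to 176.1 in knockout cells on day 9, against 115.3 to 116.4 in control cells, and 6 of the 10 rose. Of the 10 pluripotency markers 7 fell, with sums of 4.03 to 5.20 in knockout cells on day 7, against 6.99 to 9.36 in control cells, and 3.17 to 3.38 in knockout cells on day 9, against 5.80 to 8.95 in control cells. Of 10 trophoblast markers 7 were tested and all 7 fell, while Elf5 was not above background on any array. Only 3 of the 10 were above background on every array, with 3 to 4 above it on each knockout array and 6 to 8 on each control array. Some were thus tested only because they were high in control cells, which favours a fall, so the count of 7 is biased. The trophoblast sums were at most 0.606 in knockout cells and at least 1.95 in control cells. Glial lineage markers, 8 of 10 tested, and endothelial and blood cell markers, 7 of 8 tested, had overlapping sums on day 7. On day 9 the glial sums were 18.98 to 25.6 in knockout cells, against 12.5 to 15.9 in control cells, with no marker passing over both days, and the endothelial and blood sums were 2.69 to 2.79 in knockout cells, against 2.82 to 3.80 in control cells, with Cdh5 lower over both days. The part of these cell types in the cell cycle results was not tested.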

How the data were processed

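RNA of 8 samples was hybridised to 1-colour Agilent SurePrint G3 mouse arrays, all on 1 slide and in 1 scan, so no batch could be tested. The authors read the images with a program that the submitters' processing notes name as Agilent Feature Extraction 10.5.1. The processed signal in the deposited files is a spot intensity that the authors' software had background-subtracted, per the file headers, without a scale between arrays. Log2 values of the same arrays were deposited by the authors as well; each column had a median of 5.81 and an unknown offset, and this table served as an alternative. Each array had 62976 spots. No spot was saturated. Control spots (3671) and spots marked as outliers (104 to 166) were dropped.

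Repeat spots of a probe were averaged, log2 values were taken relative to each array's 75th percentile, and a probe was kept if both replicates of some group were well above background. The kept probe with the highest mean over the 8 arrays stood for a gene. Probes were named by RefSeq accession through a table on the assembly GRCm38.p6 (26300 of 55681 probes). The array design is on mm9, so its coordinates were not used. With limma 3.58.1 (R 4.3.3), lmFit and eBayes fitted 4 group means to all 8 arrays, with 4 residual and 2.53 prior degrees of freedom, for 6 two-sided contrasts. P-values were adjusted over 24632 genes by the Benjamini-Hochberg method, and calls were made at 0.05. Groups, days and replicate numbers came from the titles.

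Values on every array are given for called members, for Mki67, Top2a, Mcm2, Ccnd1 and Cdk1, and for the member with the largest mean effect in a role group without these. Cenpf, Cdkn1c and Cdkn2a were added after their values were seen. In other lists up to 3 called genes a direction are named. The members and lists were chosen with earlier results of these data known. The fit was tested on simulated data. Alternatives were quantile normalization, the array median as the scale, normexp background correction (offset 50, on the median spot signal, as no mean signal was in the files), the deposited log2 table, no filter, a stricter filter, the mean of a gene's probes, a replicate block, only the arrays of a contrast, and leaving out each array.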

Additional observations from a re-analysis of the deposited data

Results flagged for a closer look

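The changes of Tyms, which encodes thymidylate synthase, between the days had opposite signs in the 2 genotypes, and neither passed. Its levels were -1.33 and -1.13 in knockout cells on day 9, against -0.99 and -1.12 in knockout cells on day 7, and -1.29 and -1.26 in control cells on day 9, against -1.40 and -1.31 in control cells on day 7. Both day 9 arrays were thus below both day 7 arrays in knockout cells and above them in control cells. The change was -0.17 ± 0.14 in knockout cells (limma adjusted p = 0.469) and 0.08 ± 0.14 in control cells (0.767), and in knockout cells the nearest arrays of the days were nearly equal. The difference between the knockout effects was -0.251 (day 9 minus day 7), and the interaction term did not pass (limma adjusted p = 0.895).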

How the results depend on the processing

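Values in this paragraph are counts of the 42 members past the threshold or median log2 changes of the members. Over both days 7 members passed. The count was 7 after quantile normalization and 7 with the authors' deposited log2 table (5 of the original 7 in each, with Mcm7 and Cdc45 in place of Gins2 and Aurka). It was 26 with the array median as the scale, 4 with normexp, 0 without a filter on dim probes, 9 with the stricter filter and 8 with the mean of a gene's probes. The share of all genes passing as higher moved too. It was 5.48% in the main fit, 6.63% after quantile normalization, 6.62% with the deposited table and 13.4% with the array median. With normexp it was 2.7%, without the filter 0.166%, with the stricter filter 7.07% and with the mean of probes 5.89%. Leaving out 1 array gave between 0 and 3. On day 9 the count of 1 became 5 with the array median, 0 with normexp and 0 without the filter. It was 2 with the stricter filter and 0 with only the arrays of the contrast. The day 9 call was lost in most fits that left out 1 array, and fewer of all genes passed in each such fit. Of all genes on day 9, 4.62% passed as higher with the array median, 0.398% with normexp and 0% without the filter. The share was 2.42% with the stricter filter and 0.0609% with only the arrays of the contrast. In control cells, day 9 against day 7, the stricter filter called 1 member (Mcm5, lower) and 956 of 21477 genes as lower. No alternative called a member on day 7, in knockout cells over time, or for the interaction. With the array median as the scale the knockout median was 0.37 on day 7, 0.54 on day 9 and 0.46 over both days, the change over time in knockout cells was -0.014 and the interaction was 0.18. That scale moved the median of all genes over both days to 0.13, against -0.04, so that the members stood 0.33 above it under either scale and 0.26 above it after quantile normalization. The change over time in control cells was -0.10 after quantile normalization and -0.10 with the deposited table. Leaving out 1 array gave medians between 0.18 and 0.30 on day 7, 0.25 and 0.41 on day 9, 0.23 and 0.34 over both days, -0.24 and -0.082 over time in knockout cells, -0.31 and -0.12 over time in control cells, and 0.0034 and 0.17 for the interaction, the lowest without replicate 2 of knockout day 9. Mki67 on day 7 ran from -0.084 without replicate 1 of control day 7 to 0.14 without replicate 2, and was also negative, at -0.031, without replicate 2 of knockout day 7. Cdk1 on day 7 was -0.017 with the mean of its probes, and ran from -0.089 without replicate 2 of control day 7 to 0.27 without replicate 1. The cause of these changes was not tested, beyond the fewer arrays or genes that an alternative leaves. Fitting the interaction or the mean effect on only the arrays of 1 contrast was not possible. With the replicate number as a block, 12 members passed over both days (7.37% of all genes as higher), all of the original 7 among them. On day 9, 2 passed (2.51% of all genes as higher), while the other counts stayed at 0. The correlation of replicate differences between groups, across genes, ran from -0.248 to 0.464. Among knockout day 7, control day 7 and control day 9 it was 0.464, 0.311 and 0.248. With knockout day 9 it was -0.025, 0.038 and -0.248. The numbers were therefore not taken to pair all samples, and a replicate effect shared by the other groups was not tested. The number of arrays and the signal over background limit the precision, and Ccne2 and Aurkb lie below it.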
